A study of Mus musculus with 20 samples.

Results

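Cd4, Cd8a and Cd8b1 encode the chains of the T-cell coreceptors CD4 and CD8, and their loci are described here through the ChIP-seq and FAIRE peaks that fell on them. Peaks were taken when they shared at least 1 bp with chr6:124800000-124860000 (the Cd4 window, 60 kb) or chr6:71255000-71345000 (the Cd8 window, 90 kb, which holds Cd8b1, Cd8a and the sequence around them), both in build mm9. Together the windows held 553 of the 270514 peaks of the 16 lists, or 0.204%, with 163 in the Cd4 window and 390 in the Cd8 window. The windows are set by position, and they were proposed with earlier results of these lists known. RefSeq gene order places Cd4 between Gpr162 on the lower side and Lag3 on the higher side. Cd8b1 and Cd8a lie next to each other, with Gm38828 before Cd8b1 and Rmnd5a beyond Cd8a. Both windows reach toward these neighbours, so a peak near a window's end may belong to one of them. The edge of the window was crossed by 1 peak in Cd4 and 7 peaks in Cd8.

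CD4 binds MHC class II and CD8 binds MHC class I, and both bring the kinase Lck to the T-cell receptor. Thymocytes pass through a double-positive stage at which both coreceptors are made, and later keep one of them. Cd4 is known for an upstream enhancer and an intronic silencer, and the Cd8 genes for a cluster of enhancers that act at different stages of development. Cd4 is transcribed toward lower coordinates and both Cd8 genes toward higher ones.

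The cells were double-positive thymocytes of wild-type C57BL/6 mice aged 5 to 6 weeks, isolated with magnetic beads for CD8 and then for CD4, so the products of these genes were used to select the cells. All lists came from that one population and there was no other condition, so the comparison made is between the loci. Each of the 16 targets had 1 list. For 13 targets the list was made from merged replicates, and for TFIIB, CBP and Taf1 from a single replicate, so no spread between replicates exists and no p-value was computed. Each peak carried an area, the authors' value for the signal summed over the peak, which was used only to rank peaks within a list, with rank 1 the highest area. Read depth is unknown, so a list without a peak in a window says only that none was called there.

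One promoter of the 3 genes, that of Cd8a (NCBI gene 12525), was matched in the RefSeq table, and it is shown because the general factors reached some of their highest ranks of the Cd8 window on its Cd8a side. It covers chr6:71373177-71373476 in GRCm38.p6, on the plus strand, from 250 bases before the annotated start to 50 bases after it, and it was not placed on the mm9 coordinates used for the peaks. Capitals mark each E-box, the letters CANNTG, which read as the same pattern on both strands.
Cd8a: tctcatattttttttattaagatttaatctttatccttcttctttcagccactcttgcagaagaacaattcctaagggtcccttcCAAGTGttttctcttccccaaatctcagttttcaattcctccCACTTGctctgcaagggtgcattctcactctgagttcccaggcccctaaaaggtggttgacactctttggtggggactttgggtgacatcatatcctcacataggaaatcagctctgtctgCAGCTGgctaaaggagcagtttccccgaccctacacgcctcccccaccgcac
The sequence was 46.7% G and C and held 3 CpG dinucleotides, against medians of 52.7% and 7 over all 32851 promoters of that length in the table. It held 3 E-boxes, a motif that 72.3% of those promoters hold. Of the other motifs searched on both strands, none had a match in this window. They were the TATA box, spelled TATAAA, which 13.6% of the promoters hold, and the CCAAT box, which 37.4% hold. An ETS core, spelled CGGAAG, is held by 16.9% of them. A RUNX core, spelled TGTGGT, is held by 16.8%. The GC box, spelled GGGCGG, is held by 35.7%.

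Both loci were densely covered, and the Cd8 window more so than the Cd4 window. The Cd4 window held peaks of 14 lists at 27.2 peaks per 10 kb, and the Cd8 window held peaks of all 16 lists at 43.3 per 10 kb. Of the peaks of both windows, 29.5% lay in the Cd4 window (exact binomial 95% interval 25.7 to 33.5%, counting error only), which has 40.0% of their joint length. Neighbouring peaks are not independent, so the true error is wider. For the 12 factor lists and FAIRE alone, 110 peaks lay in the Cd4 window and 327 in the Cd8 window, or 25.2% in the Cd4 window (21.2 to 29.5%). The Cd4 window was denser in 3 lists (ETS1, H3K4me1 and H3K36me3) and the Cd8 window in the other 13. Peaks in the upper 10% of their list by area made up 21 of 163 in the Cd4 window (12.9%) and 105 of 390 in the Cd8 window (26.9%), against 10% of all peaks by construction.

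**Figure D1:**
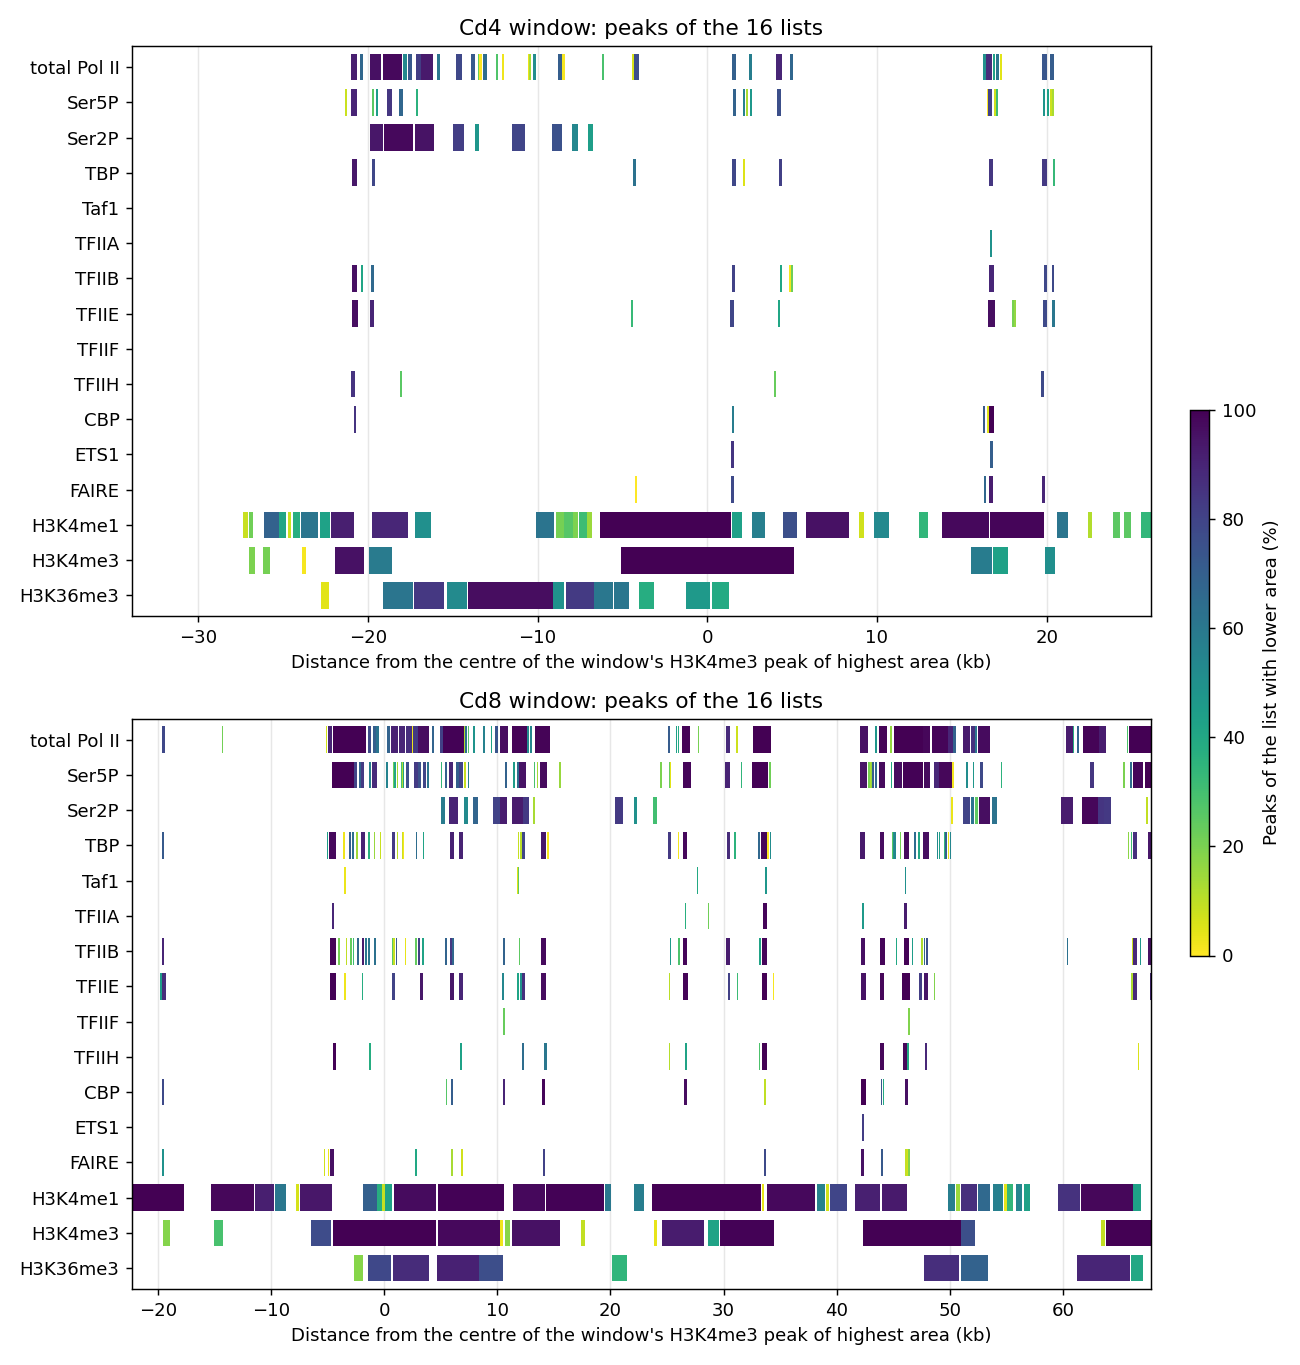
Peaks of the 16 lists along the Cd4 window (top) and the Cd8 window (bottom), with distance in kb from the centre of the H3K4me3 peak of highest area in each window, coordinates increasing to the right, and colour giving the percentage of the list with lower area. Peaks of several factors stack in a few separate columns in the Cd4 window, and fill long stretches of the Cd8 window under its broad H3K4me3 peaks.

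Both loci stood high among stretches of their own length that held at least 1 total Pol II peak. The 110 factor and FAIRE peaks of the Cd4 window exceeded those of 99.8% of 7761 such 60 kb stretches, whose median was 8, and 18 stretches had as many or more. For the Cd8 window, the 327 peaks exceeded those of every one of 6978 such 90 kb stretches, whose median was 9. These percentages describe the lists and are not a test, because the loci were chosen as the coreceptor genes of these cells.

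Total Pol II, the enzyme in all its forms, had 35 peaks covering 14.1% of the Cd4 window and 59 peaks covering 35.6% of the Cd8 window. In the Cd4 window its peak of highest area was chr6:124814801-124815920, with rank 420 of 18037, and in the Cd8 window it was chr6:71343111-71346570, with rank 14. Each of these lies toward a neighbouring gene, Gpr162 in the Cd4 window and Rmnd5a in the Cd8 window, and the second runs past the window's edge. Leaving out the Cd4 window up to position 124815330 and the Cd8 window from position 71338531, the best ranks were 1221 for Cd4 and 17 for Cd8. The Cd4 peak of rank 420 crosses position 124815330 and was left out whole, although part of it lies in the kept sequence. The Cd8 peak of rank 17, chr6:71272701-71275630, is 2930 bp wide and lies on the Cd8b1 side. A further peak of 2540 bp, chr6:71322361-71324900, with rank 22, lies on the Cd8a side.

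Pol II phosphorylated on serine 5 of its C-terminal repeats (Ser5P) is the form found at the start of genes. By peak number and length covered, it separated the loci more than total Pol II. It had 20 peaks in the Cd4 window, covering 4.47% of it, and 65 peaks in the Cd8 window, covering 22.4%. The highest rank of 10644 was 1106 in the Cd4 window, at chr6:124812911-124813230 toward Gpr162, and 31 in the Cd8 window, at chr6:71272691-71274610. Without the window ends named above, the best Ser5P ranks were 2103 for Cd4 and 31 for Cd8, beside 1221 and 17 for total Pol II. Over the whole windows, best ranks by mean signal per base were 1070 and 233 for Ser5P, and 1558 and 279 for total Pol II. The lists differ in length, so percentages of the list below are the closer comparison. Without the window ends, by area, these were 80.2% in Cd4 and 99.7% in Cd8 for Ser5P, and 93.2% and 99.9% for total Pol II. By mean signal over the whole windows they were 89.9% and 97.8% for Ser5P, and 91.4% and 98.5% for total Pol II. Best ranks thus set the loci further apart for Ser5P by area, and about equally by mean signal. None of the 20 peaks in the Cd4 window and 14 of the 65 in the Cd8 window were in the upper 10% of the list. The leading Ser5P peak had an area of 86263 over 320 bp in Cd4 and of 875033 over 1920 bp in Cd8. Per base its mean signal was 269.6 in Cd4 and 455.7 in Cd8, so the loci were closer in signal per base than in area.

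Pol II phosphorylated on serine 2 (Ser2P), the elongating form, was closer between the loci. It had 9 peaks covering 10.8% of the Cd4 window and 23 peaks covering 14.2% of the Cd8 window, with best ranks of 42 and 30 of 1811 in the Cd4 and Cd8 windows. The Cd4 peak of rank 42, chr6:124814811-124816520, overlapped the total Pol II peak of rank 420. In the Cd8 window the peak of rank 30, chr6:71338951-71340330, lay toward Rmnd5a, and without the window ends named above the best ranks were 89 for Cd4 and 70 for Cd8. The Cd4 peak of rank 42 crosses position 124815330 too, with most of its length in the kept sequence, and was likewise left out whole. With both windows narrowed by 5 kb at each end, the best ranks were 42 for Cd4 and 70 for Cd8, so for Ser2P the order of the loci depended on where the windows ended.

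**Figure D2:**
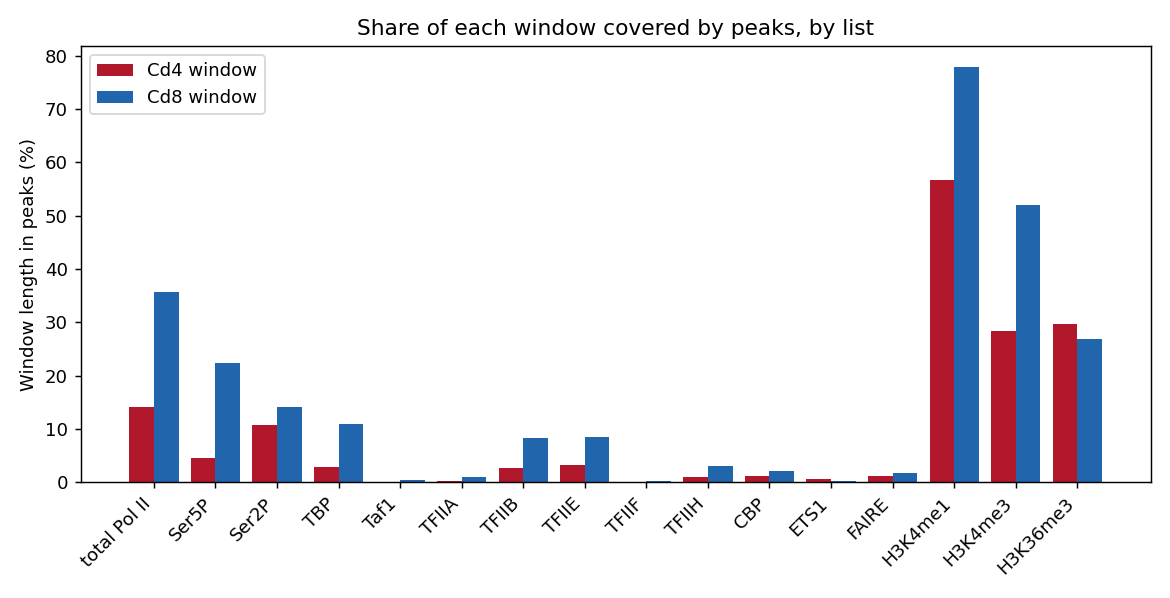
Percentage of the Cd4 window and of the Cd8 window covered by peaks of each list. Bars for the Cd8 window are higher in 14 lists, and those for the Cd4 window are higher for ETS1 and H3K36me3.

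TBP, which binds the core promoter as a subunit of TFIID, had 9 peaks in the Cd4 window and 53 in the Cd8 window, so that 14.5% of them lay in the Cd4 window (6.86 to 25.8%). Its best rank of 15651 was 1019 in the Cd4 window, at chr6:124812931-124813230 toward Gpr162, and 257 in the Cd8 window, at chr6:71310541-71311110. Next in the Cd4 window came rank 2461, at chr6:124850461-124850720. Peaks in the upper 10% of the TBP list numbered 1 in the Cd4 window and 12 in the Cd8 window. The median TBP peak of the Cd8 window lay near the middle of the list, with an area above 52.5% of it. For the Cd4 peaks the median was above 78.7% of the list. TBP peaks were thus fewer in the Cd4 window and, by their median, higher in the list than those of the Cd8 window.

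TFIIB, TFIIE and TFIIH had the same order of loci as TBP. TFIIB, which bridges TBP and Pol II, had 10 peaks in the Cd4 window and 43 in the Cd8 window, with best ranks of 435 and 53 of 10999 in Cd4 and Cd8. TFIIE, which brings in TFIIH, had 10 and 30 peaks in Cd4 and Cd8, with best ranks of 444 and 28 of 11678. TFIIH, which opens the promoter and phosphorylates serine 5, had 4 and 14 peaks in Cd4 and Cd8, with best ranks of 1284 and 31 of 8618. Cd8 therefore held the higher rank in each of these 3 lists, and it did so too without the window ends toward Gpr162 and Rmnd5a, where the Cd4 ranks became 1192, 449 and 1942 for TFIIB, TFIIE and TFIIH and the Cd8 ranks stayed at 53, 28 and 31.

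TFIIA, which stabilises TBP on DNA, had 1 peak in the Cd4 window, at chr6:124850521-124850630 with rank 3349 of 6588, and 6 in the Cd8 window, the best of rank 99 at chr6:71310771-71311080. Taf1, the largest TFIID subunit, had no peak in the Cd4 window and 6 in the Cd8 window, the best of rank 6707 of 13518. TFIIF, which travels with Pol II, had no peak in the Cd4 window and 2 in the Cd8 window, the best of rank 968 of 1262. The Taf1 and TFIIF peaks of the Cd8 window lay in the middle or the lower part of their lists. A share of 0 of 6 Taf1 peaks in the Cd4 window allows up to 45.9% there by its exact 95% interval, so for Taf1, TFIIF and TFIIA the counts are too small to order the loci.

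**Figure D3:**
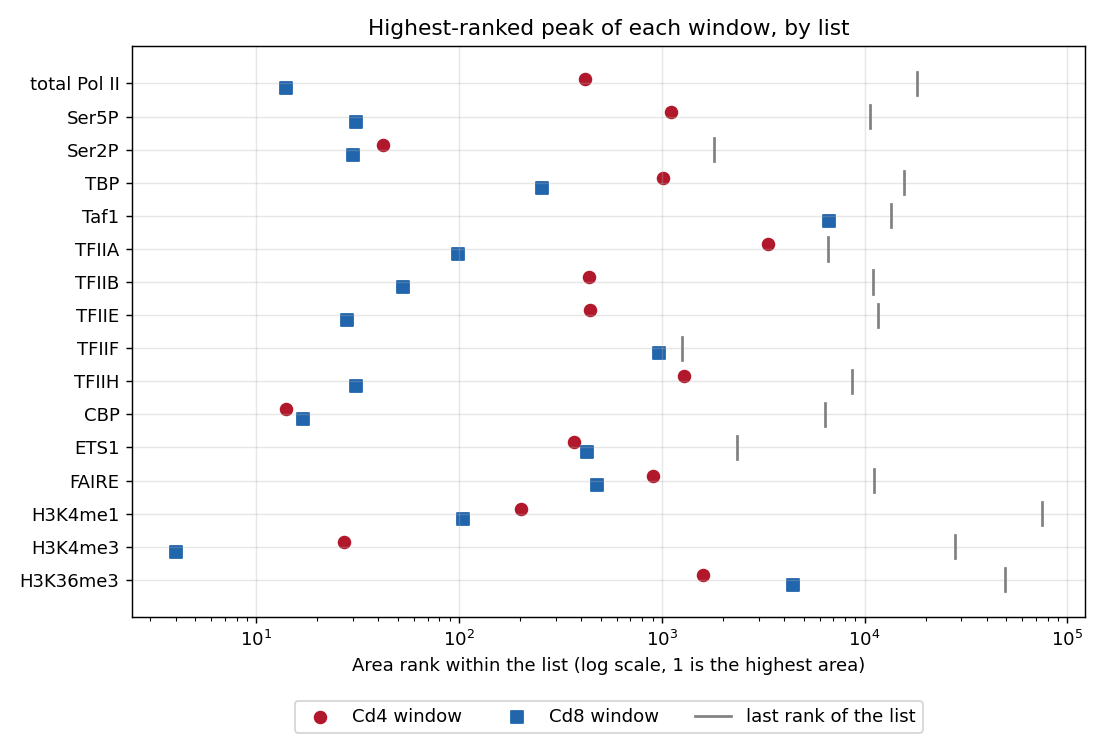
Rank by area of the highest peak of the Cd4 window (circles) and of the Cd8 window (squares) within each list, on a log scale where 1 is the highest area, with a grey bar at the last rank of the list. Cd8 squares lie left of the Cd4 circles in 11 of the 14 lists with peaks in both windows, and Cd4 circles lie left for CBP, ETS1 and H3K36me3.

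CBP, a histone acetyltransferase and coactivator of enhancers and promoters, reached nearly the same rank at both loci. In the Cd4 window the peak chr6:124850461-124850760 had an area of 121292 and rank 14 of 6372, and in the Cd8 window the peak chr6:71319421-71319870 had an area of 116675 and rank 17. By mean signal per base the best CBP ranks were 13 in Cd4 and 83 in Cd8. At the Cd4 site total Pol II had rank 2189, TBP 2461, TFIIB 1192 and TFIIE 449, and at the Cd8 site they had ranks of 806, 1053, 452 and 548. Pol II, TBP and TFIIB thus ranked higher at the Cd8 site, and TFIIE higher at the Cd4 site. The CBP peaks numbered 5 in the Cd4 window and 11 in the Cd8 window.

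ETS1, a transcription factor of T cells, had 2 peaks in the Cd4 window and 1 in the Cd8 window. In the Cd4 window they were chr6:124835291-124835470, with area 18624 and rank 367 of 2359, and chr6:124850571-124850730, with rank 704. The Cd8 peak was chr6:71319471-71319670, with area 17587 and rank 426. Each of these 3 ETS1 peaks lay at a site with a CBP and a FAIRE peak, and 1 site at each locus joined ETS1 to the strongest CBP peak of its window. With 3 peaks in all, ETS1 does not order the loci.

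FAIRE, which recovers open chromatin without an antibody, had 5 peaks in the Cd4 window and 14 in the Cd8 window. Many of the Cd8 peaks were weak, since the median FAIRE peak had an area above 77.8% of the list in Cd4 and above 29.3% in Cd8. In the upper 50% of the list there were 4 peaks in Cd4 and 5 in Cd8, or 0.667 and 0.556 per 10 kb, so the order in density turned. The Cd4 peak of highest area, chr6:124850471-124850690, had rank 907 of 11176 and lay at the strongest CBP peak. Rank 478 was the best in the Cd8 window, at chr6:71272511-71272820 on the Cd8b1 side, followed by rank 503 at chr6:71319401-71319690, which lay at the strongest CBP peak of that window. CBP peaks with a FAIRE peak numbered 3 of 5 in the Cd4 window and 7 of 11 in the Cd8 window, against 20.2% of the whole CBP list. The FAIRE track name recorded no scaling or background subtraction, unlike the others.

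H3K4me3, the mark of active promoters, covered 28.3% of the Cd4 window and 52.1% of the Cd8 window. Its peak of highest area in the Cd4 window was a single peak of 10.18 kb, chr6:124828791-124838970, with rank 27 of 28013, and in the Cd8 window chr6:71272711-71281820, with rank 4. H3K4me3 peaks of the Cd8 window lay close together, and joined where 500 bp or less apart they formed stretches of 22.01 kb (chr6:71270781-71292790, from the Cd8b1 side), 10.59 kb (chr6:71301141-71311730), 9.85 kb (chr6:71319631-71329480, on the Cd8a side) and 6.85 kb (chr6:71340621-71347470, toward Rmnd5a and past the window's edge). The Cd4 peak was thus about as long as the Cd8a-side stretch and shorter than the Cd8b1-side one. The loci were further apart by mean signal per base, where the best H3K4me3 ranks were 2438 in Cd4 and 75 in Cd8. The Cd4 peak of rank 2438 was chr6:124811931-124813630, toward Gpr162, and the 10.18 kb peak had rank 4255 by this measure.

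H3K4me1, usually the mark of enhancers, lay over most of the H3K4me3 length at both loci. It covered 56.7% of the Cd4 window and 78.0% of the Cd8 window, with best ranks of 203 and 105 of 74607 in Cd4 and Cd8. H3K4me1 also covered 13.66 kb, or 80.4%, of the H3K4me3 length in the Cd4 window and 38.26 kb, or 81.6%, in the Cd8 window, against 73.8% of the H3K4me3 length of the whole list. Neither mark covered 37.8% of the Cd4 window or 12.5% of the Cd8 window. By mean signal per base in place of area, the order of the loci turned, with best H3K4me1 ranks of 113 in Cd4 and 528 in Cd8.

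H3K36me3, which is laid down along transcribed gene bodies, differed in where it lay. It covered 29.7% of the Cd4 window, with a best rank of 1596 of 49181, and 27.0% of the Cd8 window, with a best rank of 4421. In the Cd4 window it shared 24.5% of its length with H3K4me3 and in the Cd8 window 80.6%, against 0.504% over the whole lists. The Cd4 window held one run of 14.47 kb, chr6:124814791-124829260, that contained 19 total Pol II and 8 Ser2P peaks and no TBP peak, and that reached the lower end of the 10.18 kb H3K4me3 peak. Runs in the Cd8 window were shorter, at most 6.63 kb, with peaks of both windows joined where 500 bp or less apart. The run chr6:71274641-71281270 alone contained 11 TBP and 12 TFIIB peaks. Run lengths depend on this distance, and wider ones were not tried. The next run began at position 71281961 in Cd8, after the one just named, and at 124829841 in Cd4, after the 14.47 kb run. Most of the H3K36me3 length thus lay outside H3K4me3 at Cd4 and inside it at Cd8. Of the H3K4me3 length, 4.37 of 16.98 kb at Cd4 and 19.55 of 46.87 kb at Cd8 lay in H3K36me3, so most lay outside it. H3K4me3 also covered more of the Cd8 window, 52.1% against 28.3% of the Cd4 window. By mean signal per base the best H3K36me3 ranks were 51 in Cd4 and 1612 in Cd8.

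Counted by peaks, 4 lists showed the same order. TBP peaks in H3K36me3 numbered 0 of 9 in the Cd4 window and 23 of 53 in the Cd8 window (43.4%), against 1.67% of the TBP list. Many of these Cd8 peaks were narrow and weak, such as chr6:71278891-71278920 with rank 15404 of 15651, and others were high, such as chr6:71324931-71325440 with rank 575. They lay close together in a few runs of H3K36me3, so their number is not a number of separate sites. TFIIB had 0 of 10 and 19 of 43 (44.2%) in Cd4 and Cd8, against 1.7% of its list, and TFIIE 0 of 10 and 11 of 30 (36.7%), against 2.21%. For Ser5P the counts were 3 of 20 and 36 of 65 in Cd4 and Cd8, against 4.29% of the list. Total Pol II and Ser2P did not separate the loci this way, with 19 of 35 and 34 of 59 total Pol II peaks in Cd4 and Cd8 (13.9% of the list) and 8 of 9 and 15 of 23 Ser2P peaks (53.7%). TFIIH did not either, with 1 of 4 peaks in Cd4 and 4 of 14 in Cd8. TFIIA had 0 of 1 in Cd4 and 0 of 6 in Cd8, and Taf1, with no peak in Cd4, had 0 of 6 in Cd8. CBP had 0 of 5 in Cd4 and 2 of 11 in Cd8, and FAIRE 0 of 5 and 3 of 14, which are small counts.

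**Figure D4:**
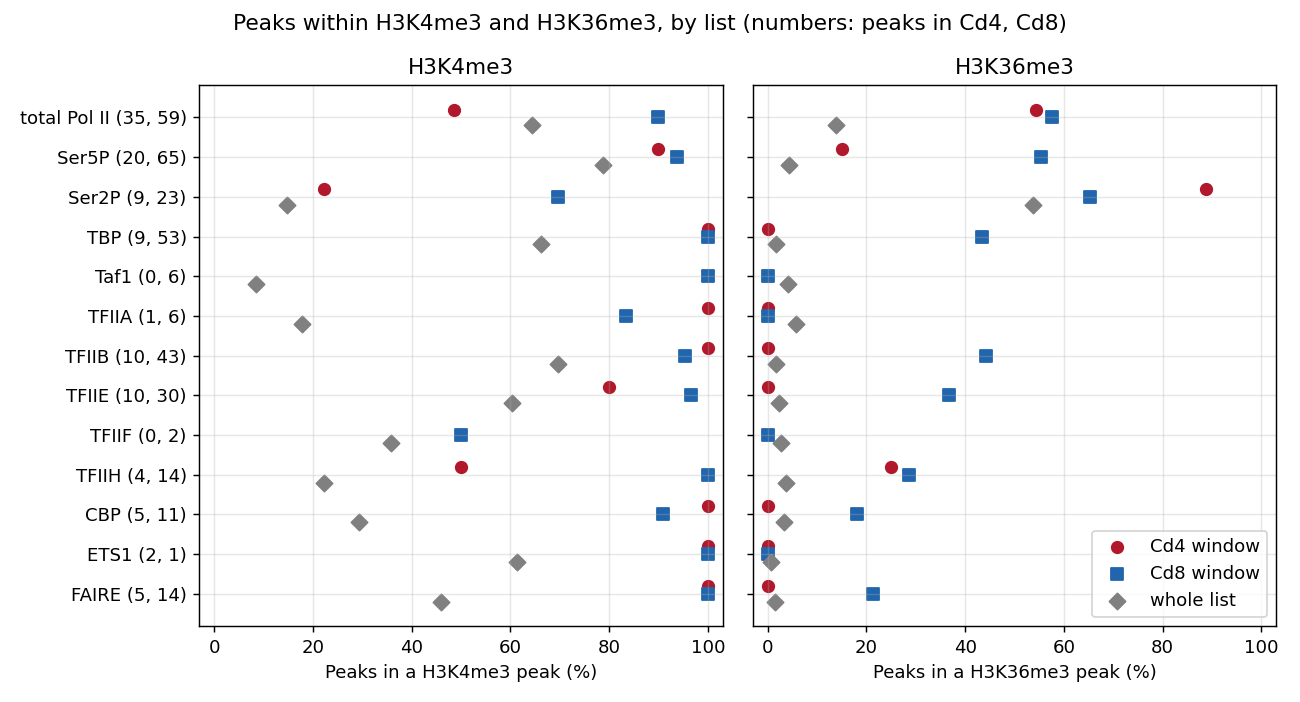
Percentage of the peaks of each list that overlapped an H3K4me3 peak (left) or an H3K36me3 peak (right), in the Cd4 window (circles), the Cd8 window (squares) and the whole list (diamonds), with peak numbers in Cd4 and Cd8 in brackets. For H3K36me3 the TBP, TFIIB and TFIIE circles lie at 0 and the squares between 36.7% and 44.2%.

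Factor and FAIRE peaks lay in H3K4me3 more often at both loci than over the whole lists. Of the pooled peaks of these 13 lists, 79 of 110 in the Cd4 window (71.8%, exact 95% interval 62.4 to 80.0%) and 304 of 327 in the Cd8 window (93.0%, 89.6 to 95.5%) overlapped an H3K4me3 peak, against 49.3% of all peaks of the lists. This pooled share is weighted by list size. Taf1, with 13518 of the 118713 pooled peaks and 8.57% of them in H3K4me3, had no peak in the Cd4 window. Part of the difference may thus be list make-up, and the shares list by list are the closer comparison. Total Pol II had 17 of 35 peaks in H3K4me3 in Cd4 and 53 of 59 in Cd8, against 64.3% of its list, and its 18 peaks outside were most of the Cd4 peaks outside H3K4me3. Ser2P had 2 of 9 and 16 of 23 peaks in H3K4me3 in Cd4 and Cd8, against 14.7% of its list. Ser5P had 18 of 20 and 61 of 65, against 78.7%.

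Among general factors, every TBP peak of both windows lay in H3K4me3 (9 of 9 in Cd4 and 53 of 53 in Cd8, against 66.3% of the list). TFIIB had 10 of 10 and 41 of 43 in Cd4 and Cd8 (69.7% of the list), TFIIE 8 of 10 and 29 of 30 (60.4%), and TFIIH 2 of 4 and 14 of 14 (22.2%). TFIIA had 1 of 1 and 5 of 6 in Cd4 and Cd8 (17.8%), and in the Cd8 window alone Taf1 had 6 of 6 (8.57%) and TFIIF 1 of 2 (35.8%). CBP had 5 of 5 and 10 of 11 in Cd4 and Cd8 (29.3%), ETS1 2 of 2 and 1 of 1 (61.4%), and FAIRE 5 of 5 and 14 of 14 (45.9%). Most lists with more than a few peaks were thus above their own background at both loci, and total Pol II at Cd4 was below it.

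Peaks of the 13 factor and FAIRE lists were next joined into elements where 500 bp or less apart. The Cd4 window had 14 elements with a median width of 705 bp, and the Cd8 window had 17 with a median width of 1880 bp. Elements with 2 or more lists numbered 9 in Cd4 and 12 in Cd8, and those with both total Pol II and TBP 6 in Cd4 and 9 in Cd8 (6 and 6 when joined within 1000 bp). The Cd4 element with most lists was chr6:124850121-124851190, with 9 of 13, and the Cd8 element with most was chr6:71319321-71327840, on the Cd8a side, which held all 13 lists over 8520 bp. Elements with 8 or more lists numbered 3 in Cd4 and 6 in Cd8. The elements of the Cd8 window were thus not much more numerous than those of the Cd4 window, but wider and made of more lists.

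The broad Pol II peaks bridge separate factor peaks, so peaks of the 10 lists other than Pol II were also joined into narrower sites, where 100 bp or less apart. The Cd4 window had 13 sites and the Cd8 window 48, of which 8 in Cd4 and 34 in Cd8 held both total Pol II and TBP. Sites with peaks of at least 8 of the 13 lists numbered 2 in Cd4 and 9 in Cd8. FAIRE peaks were present at 4 Cd4 sites and 11 Cd8 sites, and CBP peaks at 3 and 10.

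The Cd4 site with most lists, 9 of 13, was chr6:124850121-124850810, toward Lag3 from the 10.18 kb H3K4me3 peak. It held the CBP peak of rank 14, an ETS1 peak, the best FAIRE peak, the only TFIIA peak of the window, TBP, TFIIB, TFIIE, total Pol II and Ser5P, and lay under H3K4me1 peaks of ranks 1558 and 1016 with H3K4me3 peaks of ranks 11628 and 16067. The second site, chr6:124835251-124835560, was 15.06 kb away, lay inside the 10.18 kb H3K4me3 peak and held 8 lists, among them the ETS1 peak of rank 367. At the upper end of that H3K4me3 peak, the site chr6:124837831-124838280 held total Pol II (rank 1884), Ser5P (2559), TBP (2981), TFIIB (6497), TFIIE (6912) and TFIIH (6608), with no FAIRE or CBP peak. TFIIE thus ranked 449 at the CBP-rich site and 6912 at the upper end of the widest H3K4me3 peak, 12.41 kb apart.

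The remaining Cd4 sites of note lay at the window's ends. Toward Gpr162, chr6:124812911-124813320 held the best TBP, TFIIB, TFIIE, TFIIH and Ser5P peaks of the window and a CBP peak of rank 967. Toward Lag3, chr6:124853571-124853900 held TBP of rank 2680, TFIIH of rank 1942 and FAIRE of rank 1216. No start site was assigned to any of them, since no mm9 annotation was used.

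The Cd8 site with most lists, 11 of 13, was chr6:71322871-71323720 on the Cd8a side. It held total Pol II of rank 22, Ser5P of rank 48, TBP of rank 398, TFIIB of rank 53, TFIIE of rank 28 and TFIIH of rank 139, with TFIIA, Taf1, TFIIF and CBP, and only weak FAIRE peaks, the best of rank 9072. Ser2P and ETS1 had no peak there. The Cd8b1-side site, chr6:71272221-71273010, was 50.68 kb away and had 8 lists, with total Pol II of rank 17, Ser5P 31, TBP 331, TFIIB 111, TFIIE 46, TFIIH 55 and FAIRE 478, and no CBP peak. Both sites lay among the upper 3% of their lists for total Pol II, Ser5P, TBP, TFIIB, TFIIE and TFIIH, and they differed in FAIRE and CBP.

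Of the other Cd8 sites, only chr6:71310341-71311160 lay among the upper 3% of the lists for total Pol II, Ser5P, TBP, TFIIB, TFIIE and TFIIH. Close to this came chr6:71321061-71321530, with TBP of rank 528, and chr6:71303671-71304120, with TBP of rank 342 but TFIIH of rank 4987. Between the Cd8b1-side and Cd8a-side stretches, chr6:71310341-71311160 held 10 lists, with the best TBP (257), TFIIA (99) and TFIIH (31) ranks of the window, TFIIE of rank 35, and total Pol II of rank 52, but only a CBP peak of rank 5766. It lay 12.55 kb below the Cd8a-side site. Closer to it, 3.69 kb below, chr6:71319351-71319870 held 9 lists with the CBP peak of rank 17, the ETS1 peak and FAIRE of rank 503. The same 9 lists were those of the CBP-rich Cd4 site chr6:124850121-124850810. Within the Cd8b1-side stretch, chr6:71291121-71291730 held 8 lists with CBP of rank 98. Total Pol II had rank 204, TFIIB 273, TBP 1014 and TFIIH 3402 there. TFIIH had no peak at the site of the CBP peak of rank 17, and had ranks 31 and 55 at the sites with a weak CBP peak and with none. At the Cd8a-side site chr6:71322871-71323720, however, TFIIH of rank 139 lay with CBP of rank 269. At chr6:71321061-71321530 TFIIH of rank 145 lay with CBP of rank 1699, and at chr6:71303671-71304120 TFIIH of rank 4987 with CBP of rank 219. TFIIH and CBP ranks thus had no single order over the Cd8 sites. No enhancer known from other work was assigned to any site.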

How the data were processed

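Peaks of 16 lists, 1 per target, were used from 20 samples of double-positive mouse thymocytes. The input, rabbit IgG and RNA samples were not analysed here. Column 6 of each deposited list is the area of a peak under the authors' signal track, and the names of those tracks record artefact removal, scaling and background subtraction for 15 lists and none of these for FAIRE. Peak ends fell on bins of 10 bp. Build mm9 comes from the submitters' processing notes. Aligner, peak caller, threshold and depth: not given in the sources used here. Per the labels' protocols, ETS1 used sheep anti-rabbit beads and the other targets Protein-G beads.

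Peaks sharing at least 1 bp with a window were taken. Areas were ranked within each list. Overlap meant 1 bp in common. Elements joined peaks of the 12 factor lists and FAIRE lying within 500 bp, and sites joined the 10 lists without Pol II within 100 bp, a choice made after seeing the data. Intervals are exact binomial (Clopper-Pearson, 95%). The interval code was tested on simulated peaks against base-by-base counts (2420 comparisons, 0 mismatches). Python 3.11.15, pandas 2.3.3 and scipy 1.17.1 were used. The genes, windows and lists were chosen with earlier results of these data known. Regions were named by rule as the elements with most lists, the H3K4me3 peaks and the peak of highest area per list and window, and the sites described were picked after their values were seen. Planned checks by gene annotation (other T-cell genes, cell type markers) were not run, since mm9 annotation was not used here. RefSeq tables of GRCm38.p6 gave gene order and the Cd8a promoter. Alternatives are in the closing section.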

Additional observations from a re-analysis of the deposited data

How the results depend on the processing

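Of 41 alternative values of the main comparisons, 29 stayed within the limits used (1.5 times for a count, the exact 95% interval for a share or percentile) and 12 moved. The share of Cd8 factor and FAIRE peaks in H3K4me3 was 89.6% when 50% of a peak had to be covered, 96.9% when peaks within 500 bp counted and 86.7% in the upper 50% of each list. Elements joined within 500 bp numbered 14 in Cd4 and 17 in Cd8, of which 9 in Cd8 held total Pol II and TBP. Joined at 0 bp they were 41 in Cd4 and 69 in Cd8, with 23 in Cd8 holding both, within 1000 bp 6 in Cd4 and 9 in Cd8, with 6 in Cd4 and 6 in Cd8 holding both, and as sites without Pol II lists, an alternative added after seeing the data, 13 in Cd4 and 48 in Cd8 with 34 holding both. Per 10 kb there were 2.33 elements in Cd4 and 1.89 in Cd8 at 500 bp, and 2.17 sites in Cd4 and 5.33 in Cd8, so which window was denser depended on how peaks were joined. Over all stretches with a peak of any list, the Cd4 window exceeded 99.9% in factor peaks and 99.9% in H3K4me3 length. Of 30 best ranks set by mean signal per base, 10 were higher and 20 lower as a percentage of the list below, and the order of the loci turned for H3K4me1 alone, of 14 lists. Without the window ends toward Gpr162 and Rmnd5a, also added after seeing the data, Cd8 ranked higher in 11 of 14 lists, as with the whole windows. There the Ser2P peak of rank 42 in Cd4, which crosses the cut, was left out whole. With the windows narrowed by 5 kb Cd8 ranked higher in 10, with Ser2P turned. With unknown depth and 1 list per target, no replicate could be left out. No paired analysis was possible because each target had 1 list and no test was run.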
